A study of Mus musculus with 3 samples.

Results

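The antioxidant enzymes described here are 10 genes, Gpx1, Gpx3, Gpx4, Cat, Sod1, Sod2, Prdx1, Prdx2, Prdx4 and Txn1, out of 17226 genes listed in at least 1 of 3 islet libraries. They were chosen by name, and all 10 were listed in every library. Their transcripts were measured by droplet single-cell RNA-seq of mouse pancreatic islets with and without inactivation of Taf4, a subunit of the general transcription factor TFIID. There was 1 WT library, 1 mutant library taken 1 week after inactivation (hereafter 1 week) and 1 taken at 5 weeks. Counts of unique molecular identifiers (UMIs), each standing for 1 captured transcript, were summed over the cells of a class in a library. In WT and at 5 weeks, beta cells had Ins2 at 20% or more and Gcg under 3% of their UMIs, alpha cells had Gcg at 15% or more and Ins2 under 10%, and delta cells had Sst at 5% or more. At 1 week the Ins2, Gcg and Sst minimums were 5%, 8% and 1.5%, in cells of at least 5000 UMIs, and the upper limits were kept.

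All mice were C57/Bl6. Mutant mice carried floxed Taf4 lox/lox alleles and a Tamoxifen-activated Cre-ERT2 under the Ins1 promoter, so that the deletion is directed to beta cells, and they received Tamoxifen as adults on consecutive days. In the study as a whole, control mice were Ins1::Cre-ERT2 Taf4 +/+ animals given Tamoxifen. For the WT single-cell library the labels state only a wild-type genotype, while the study names Taf4 +/+ and mutant islets together as taken after Tamoxifen, which can be read to include the WT mouse. Islets of 1 mouse (300 islets) went into WT, while 300 islets from 2 mice were pooled for each mutant timepoint. Alpha and delta cells share the islet with the targeted beta cells. A class set by Gcg or Sst could also hold cells of beta cell origin that carry the deletion, and these cannot be told apart from other alpha or delta cells here. Since each condition is a single library, conditions could not be tested against each other, and animal, library and genotype cannot be told apart.

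Reactive oxygen species are removed in steps. Superoxide dismutases turn superoxide into hydrogen peroxide, which catalase, the glutathione peroxidases and the peroxiredoxins then reduce, the last of these with electrons from thioredoxin. Beta cells are known for low levels of several of these enzymes, catalase and Gpx1 above all, and for a sensitivity to oxidative stress that goes with it.

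The libraries held 19472212 UMIs over 12000 barcodes in WT, 23131247 over 2295 barcodes at 1 week and 39408284 over 11229 barcodes at 5 weeks. The rules found 8271, 562 and 5685 beta cells, 2772, 172 and 3011 alpha cells, and 621, 38 and 1443 delta cells in WT, 1 week and 5 weeks. In no class were 2.82%, 66.4% and 11.5% of barcodes, so the 1-week values rest on a deep minority of that library. Depth differed strongly, as beta cells had medians of 1656, 24754.5 and 3868 UMIs in that order. The libraries shared between 2 and 33 barcodes pairwise. At 5 weeks 128 cells met the rules for both beta and delta and 73 those for both alpha and delta, against 2 and 0 in WT, where hormone-mixed cells had been removed before deposit. Taf4 itself had 102, 196 and 160 UMIs (5.24, 8.47 and 4.06 CPM). These tags lie at the 3′ end of the transcript, and since the position of the deleted exons is not given in the sources used here, they do not check the deletion. The WT mouse was described as male, but its library held 17357 UMIs of Xist, the RNA of X inactivation, and 0 UMIs of 4 genes of chromosome Y (Uty, Kdm5d, Eif2s3y and Ddx3y), while the 1-week and 5-week libraries held 184 and 88.2 CPM of those 4 genes. The WT library is therefore called the library labelled WT wherever an X-linked gene is compared. The same difference lies between WT and both mutant libraries in every comparison over WT. For autosomal genes too, sex or sample identity thus cannot be told apart from genotype.

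The marker lists hold Ins2, Gcg and Sst, which set the classes, so a high sum in a list's own class is no independent check. Summed over the list, beta markers stood at 679047, 428911 and 656841 CPM in beta cells of WT, 1 week and 5 weeks, alpha markers at 380011, 249887 and 411859 CPM in alpha cells, and delta markers at 159934, 69743 and 117979 CPM in delta cells. In WT, Ins2 made up 437624 CPM of the beta sum, Gcg 341020 CPM of the alpha sum and Sst 152822 CPM of the delta sum. Delta cells also held beta markers at 54466 to 149762 CPM and Ppy, the PP cell hormone, at 18829.8 to 26166 CPM. Of the beta markers in delta cells at 1 week, Ins1 and Ins2 stood at 612 and 8561 CPM. Alpha cells held beta markers at 5774 to 44202 CPM and Ppy at 6377 to 9935 CPM, so neither class is pure by this measure. Transcripts of 10 acinar enzymes, which come from exocrine cells, summed to 4971 to 14780.4 CPM in the 3 classes of WT, 7.41 to 15.9 CPM at 1 week and 573 to 2170.4 CPM at 5 weeks. Endothelial, macrophage, mesenchymal, ductal and blood lists stayed at or below 31.8, 116, 6.70, 447 and 24.4 CPM in every class, and the 3 blood genes were not listed at 1 week.

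The protein chemistry of the set can be read in its coding sequences. The glutathione peroxidases Gpx1, Gpx3 and Gpx4 are selenoproteins, in which a TGA codon inside the reading frame is read as selenocysteine at the active site. In the GENCODE M1 coding sequences each of these 3 genes held exactly 1 such codon, at codon 47 of Gpx1, codon 73 of Gpx3 and codon 129 of the longest Gpx4 form, and none of the other 7 genes held one. The codon is shown in capitals with 12 bases on either side.
Gpx1: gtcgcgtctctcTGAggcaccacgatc
Gpx3: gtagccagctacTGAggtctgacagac
Gpx4: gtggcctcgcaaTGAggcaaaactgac
In all 3 windows the codon was followed by gg, the start of a glycine codon. The genes lie apart from each other in GRCm38.p6 (mm10), with Prdx1 and Txn1 on chromosome 4, Cat on chromosome 2, Prdx2 on 8, Gpx1 on 9, Gpx4 on 10, Gpx3 on 11, Sod1 on 16, Sod2 on 17 and Prdx4 on X. The members with the largest ratios below span chr2:103453904-103485153 (Cat), chr11:54902854-54910387 (Gpx3) and chr16:90220762-90226333 (Sod1), each from first to last exon.

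In beta cells of the WT library the antioxidant genes spanned more than 2 orders of magnitude. Levels are given as CPM, the count of the gene scaled to 1000000 UMIs of the class. As 3′ tags count each transcript once, CPM needs no scaling by transcript length, and levels of different genes are compared as captured transcripts. Exact Poisson 95% intervals and exact conditional intervals of ratios cover counting error only. Prdx1, a cytosolic peroxiredoxin, was highest at 287 CPM (279 to 295), followed by Gpx4, the lipid hydroperoxide reductase, at 184 CPM and Prdx2 at 155 CPM. Sod2, the mitochondrial superoxide dismutase, stood at 92.3 CPM, Txn1 at 78.6 CPM and Gpx1 at 76.7 CPM, and the intervals of the last 2 overlapped. Sod1, the cytosolic copper-zinc dismutase, stood at 36.2 CPM, Gpx3, the secreted glutathione peroxidase, at 25.6 CPM and Prdx4, the peroxiredoxin of the endoplasmic reticulum, at 15.8 CPM. Catalase was at the bottom, with 12 UMIs in 8271 cells (0.748 CPM, 0.387 to 1.31). Its low level was not particular to beta cells, as WT alpha cells held 2 UMIs (0.848 CPM, 0.103 to 3.06). WT delta cells held 3 UMIs (6.80 CPM, 1.40 to 19.9). The order in beta cells was thus led by peroxiredoxins and Gpx4, with catalase at least a factor of 10 below every other member.

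**Figure D1:**
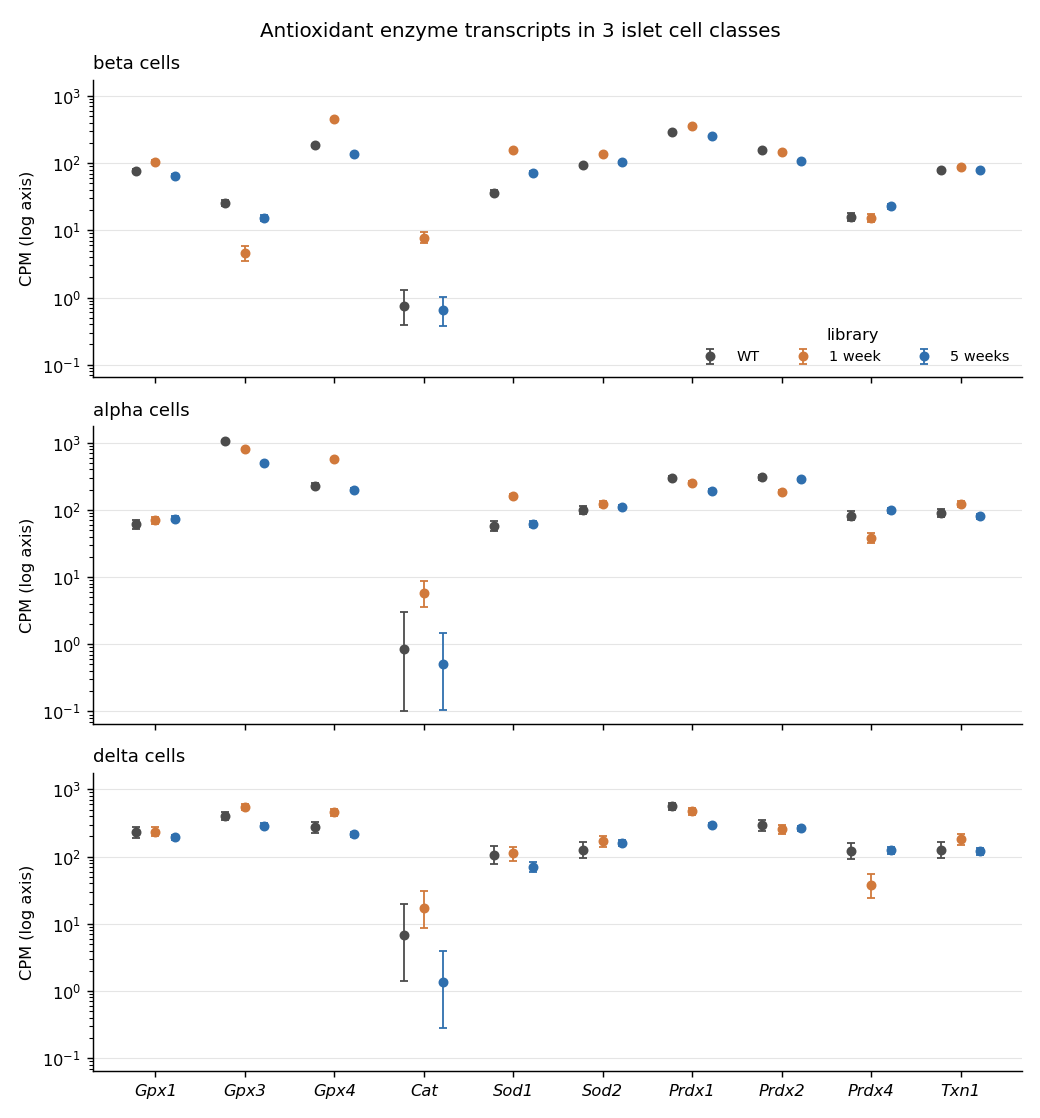
CPM on a log axis for the 10 genes in beta, alpha and delta cells, with 1 point per library (WT grey, 1 week orange, 5 weeks blue) and exact Poisson 95% intervals, which are smaller than many points. Gpx3 spans 4.53 CPM in beta cells at 1 week to 1055 CPM in alpha cells of WT, while Sod2 stays between 92.3 and 171 CPM in all 9 sums, and Cat lies below the other genes in 8 of them.

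Alpha cells of WT differed from beta cells mainly in Gpx3 and Prdx4. Gpx3 stood at 1055 CPM (1014 to 1097) in alpha and 404 CPM (346 to 467) in delta cells, against 25.6 CPM (23.1 to 28.2) in beta cells, a 41.3-fold difference between alpha and beta. It was the highest of the 10 genes in alpha cells and the eighth in beta cells. Prdx4 stood at 82.3 CPM in alpha and 122 CPM in delta cells against 15.8 CPM in beta cells. Prdx2 was 1.96-fold higher in alpha than in beta cells, and Gpx1 stood at 61.1 CPM in alpha, 76.7 CPM in beta and 229 CPM in delta cells. Past 2-fold higher in alpha cells were 2 of 9 members tested, a gene being tested with at least 100 UMIs in both sides together, beside 20.6% of 6834 genes. The members' median log2 ratio was 0.31 and that of all genes 0.54. In delta over beta cells 4 of 9 members (Gpx3, Prdx4, Gpx1 and Sod1) were past 2-fold higher beside 46.6% of 6312 genes, so this share is that of the background. No member was past 2-fold lower in alpha or delta cells, beside 4.48% and 1.77% of genes.

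The denominator matters in that comparison, since hormone transcripts made up 68.0% of UMIs in WT beta, 41.5% in alpha and 33.0% in delta cells. With 7 hormone genes (Ins1, Ins2, Gcg, Sst, Ppy, Pyy and Iapp) left out of the total, the median of all genes moved from 0.54 to -0.34 in alpha over beta and from 0.94 to -0.13 in delta over beta. Gpx3 remained 22.6-fold and Prdx4 2.85-fold higher in alpha than in beta cells on that scale, whereas Sod1 turned from 0.66 to -0.21 on the log2 scale, and Gpx1, at -0.33 with all UMIs, stood at -1.20. In delta cells Gpx3 and Prdx4 were 7.54-fold and 3.71-fold higher than in beta cells, and Gpx1 and Sod1 came to 1.43-fold and 1.41-fold. Gpx3 and Prdx4 were thus the members higher in alpha and delta than in beta cells on both scales by more than 2-fold.

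The cells behind these values were counted after each cell had been thinned to 500 UMIs. Of WT cells, 1.44% of beta, 38.4% of alpha and 17.6% of delta cells held a Gpx3 UMI (4.45%, 53.9% and 23.8% unthinned). A low share of this kind can come from free RNA of other cells, and in WT beta cells there were 13.9 Gpx3 UMIs per 1000 UMIs of Gcg, the alpha cell hormone, against 3.09 in alpha cells. At 5 weeks the same ratio was 11.5 in beta and 1.24 in alpha cells, and at 1 week 19.0 and 3.29. The ratio in beta cells was above that of alpha cells in each of the 3 libraries. In delta cells it was 124 in WT, 1321 for 1 week and 10.1 for 5 weeks. Gcg was itself used to set the classes, with an upper limit in beta cells and a minimum in alpha cells. Delta cells of WT and 1 week also held Gpx3 with little Gcg. The ratio therefore cannot show how much Gpx3 in beta cells is free RNA, and that part was not tested.

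Upstream sequence is shown for Sod1, Prdx1 and Gpx3, as the 100 bases before the RefSeq start site on GRCm38.p6, all on the plus strand. Capitals mark the letters TATAAA, the core of the TATA box, and TGACNNNGC, the core of the antioxidant response element, both searched on each strand.
Sod1, chr16:90220662-90220761: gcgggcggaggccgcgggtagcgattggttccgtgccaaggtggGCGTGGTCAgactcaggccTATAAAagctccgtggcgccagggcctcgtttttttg
Prdx1, chr4:116685499-116685598: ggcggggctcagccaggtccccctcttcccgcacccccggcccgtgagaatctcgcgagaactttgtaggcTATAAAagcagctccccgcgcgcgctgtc
Gpx3, chr11:54902754-54902853: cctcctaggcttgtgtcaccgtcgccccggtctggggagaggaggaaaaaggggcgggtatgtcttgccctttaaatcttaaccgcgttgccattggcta
TATAAA was found in the windows of Sod1 and Prdx1 and in none of the other members, beside 5.56% of 32851 RefSeq promoter windows of this length. TGACNNNGC was found in the Sod1 window alone, on the opposite strand, beside 4.82% of windows. Within 250 bases Prdx1 also held TGACNNNGC and Txn1 also held TATAAA, beside 10.2% and 12.4% of windows. A match is a string of letters and was not tested as a binding site.

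At 5 weeks after inactivation, the antioxidant genes of beta cells stood close to WT as a set, with Sod1 higher and Gpx3 and Prdx2 lower. Sod1 stood at 36.2 CPM (33.3 to 39.2) in WT and 72.5 CPM (69.4 to 75.7) at 5 weeks, a 2.01-fold difference (interval 1.83 to 2.20), and 93.6% of genes had a smaller ratio. After thinning to 500 UMIs, 1.79% of WT and 3.80% of 5-week beta cells held a Sod1 UMI (6.64% and 28.2% unthinned). Gpx3 stood at 25.6 and 15.4 CPM (log2 -0.73, interval -0.93 to -0.54) and Prdx2 at 155 and 108 CPM (log2 -0.53). Gpx4 (log2 -0.40), Gpx1 (-0.24) and Prdx1 (-0.20) were lower by less, Sod2 stood at 92.3 and 102 CPM, and Txn1 at 78.6 and 78.4 CPM with an interval of its log2 ratio from -0.10 to 0.10. Cat had 12 and 18 UMIs, too few to be tested, with an interval from -1.35 to 0.97 that covers either direction. Past 2-fold higher was 1 of 9 members, Sod1, beside 6.41% of 9207 genes, and 0 of 9 were past 2-fold lower beside 4.18%. The members' median log2 ratio was -0.20 and that of all genes 0.18, and 2 of 9 members stood above the median of all genes. The 10 genes together summed to 952 CPM (937 to 967) in WT and 854 CPM (843 to 865) at 5 weeks.

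Sod1 sat at the edge of the 2-fold line. With hormones left out it was 1.90-fold higher (log2 0.93), and it lay below 2-fold in cells of 2000 or more UMIs and under the cell filter of the study's methods, while its direction was the same under each alternative. Leaving hormones out moved each log2 ratio of this comparison by -0.08 and changed no sign. The Gpx3 ratio depended more on the setting, running from -1.51 to -0.60 over the alternatives. Acinar transcripts in beta cells went from 4971 CPM in WT to 573 CPM at 5 weeks, and their part in these differences was not tested.

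**Figure D2:**
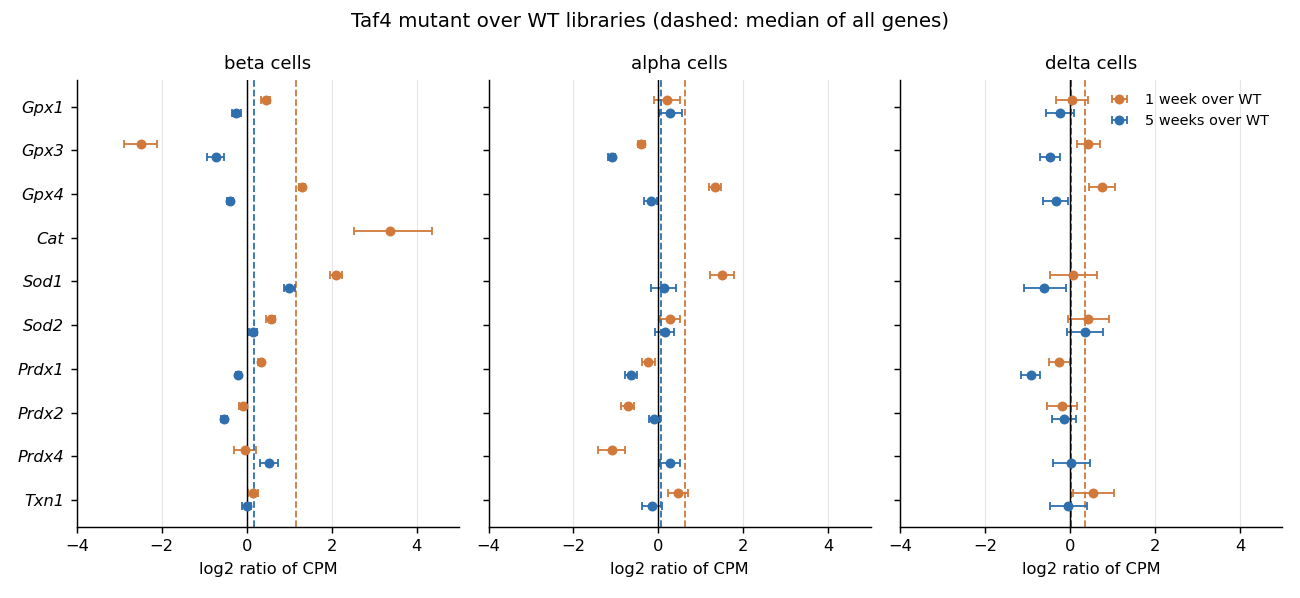
Log2 ratio of CPM, mutant over WT, for each member with at least 100 UMIs in both sides together, in beta, alpha and delta cells (1 week orange, 5 weeks blue), with exact 95% intervals for counting error. Dashed lines give the median of all genes tested, 1.15 at 1 week and 0.18 at 5 weeks in beta cells. Sod1 and Gpx4 at 1 week lie right of the dashed line in beta and alpha cells, and Gpx3 lies left of it in both classes and at both times.

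Prdx4, on chromosome X, was the other member above the median in beta cells at 5 weeks, with 15.8 CPM in the library labelled WT and 22.7 CPM at 5 weeks (log2 0.53, interval 0.31 to 0.74). The 303 X-linked genes tested had a median log2 ratio of -0.05 and the 8616 autosomal genes one of 0.19 in the same comparison, so that Prdx4 stood above both. At 1 week it was at 15.3 CPM (log2 -0.04, interval -0.30 to 0.22), beside medians of 0.74 for X-linked and 1.17 for autosomal genes. What the sex-linked transcripts of the library labelled WT contribute to these values was not tested.

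At 1 week beta cells showed a larger spread among the 10 genes, on top of a shift in the median of all genes. Hormone transcripts made up 42.8% of beta cell UMIs at 1 week and 68.0% in WT, and the median log2 ratio of all genes over WT was 1.15, or 0.31 with hormones left out, so each ratio below is also given less that median of 1.15. Sod1 stood at 156 CPM (149 to 162) against 36.2 CPM in WT, a 4.30-fold difference (log2 2.10, 0.95 above the median of all genes). Gpx4 stood at 452 CPM (442 to 463) against 184 CPM (log2 1.30, 0.15 above the median). Cat had 117 UMIs against 12 in WT, at 7.80 CPM (6.45 to 9.35) against 0.748 CPM (log2 3.38, interval 2.52 to 4.38), 2.23 above the median, and 99.3% of genes had a smaller ratio. Catalase, the member with the lowest level in WT beta cells, thus had the highest ratio of the 10, though its level at 1 week was still the second lowest. Among 1-week beta cells, those above the median depth held 5.95 CPM of Cat and those at or below it 12.5 CPM (log2 -1.07, or -0.59 with hormones left out). Barcodes of the 1-week library in no class held 21.5 CPM, and the part of such RNA in the beta cell value was not tested.

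The other genes stood below the median of all genes. Gpx3 was at 4.53 CPM (3.52 to 5.75) against 25.6 CPM in WT, 5.64-fold lower (log2 -2.49), and 0.801% of genes had a smaller ratio. Sod2 (log2 0.56), Gpx1 (0.45), Prdx1 (0.33), Txn1 (0.15) and Prdx2 (-0.09) lay between 0.59 and 1.24 below the median of all genes. With hormones left out these 5 stood between -0.93 and -0.28, so the sign of Sod2, Gpx1, Prdx1 and Txn1 depends on the denominator, and Gpx4 came to 1.38-fold. With all UMIs, 3 of 10 members were past 2-fold higher beside 57.6% of 9233 genes, a smaller share than the background. Past 2-fold lower was 1 of 10, Gpx3, beside 2.49%. With hormones left out Cat (2.54) and Sod1 (1.27) were still past 2-fold higher, beside 16.8% of genes, and Gpx3 (-3.33) lower, beside 7.23%. The smaller share thus holds with all UMIs only. Of the 10 members, 3 stood above the median of all genes, and their own median was 0.39.

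**Figure D3:**
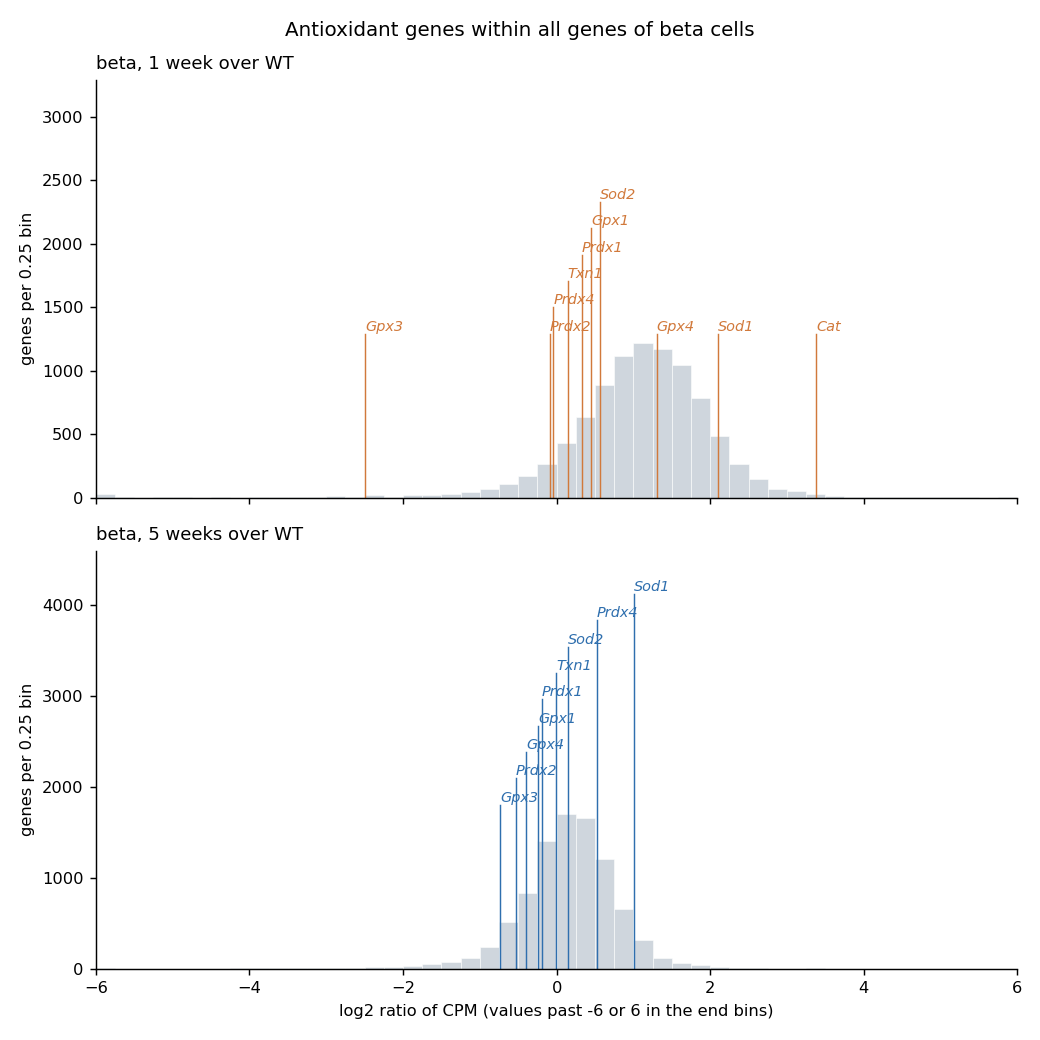
Number of genes per bin of 0.25 in the log2 ratio of beta cells, 1 week over WT (top) and 5 weeks over WT (bottom), with the members tested marked by lines whose height carries no value. The top distribution is centred at 1.15 and 7 of 10 members lie left of that, Gpx3 far out at -2.49 and Cat far right at 3.38. In the bottom panel the members lie between -0.73 and 1.00.

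Some transcripts of other cells had the same order of libraries in beta cells as Gpx3, and others did not. Gcg made up 0.184% of beta cell UMIs in WT, 0.0238% at 1 week and 0.134% at 5 weeks, and acinar transcripts stood at 4971, 15.9 and 573 CPM, beside Gpx3 at 25.6, 4.53 and 15.4 CPM. Delta markers (323, 57.8 and 3187 CPM), Ppy (172, 77.7 and 687 CPM) and the ductal list (110.1, 172 and 149 CPM) had other orders. Among 1-week beta cells, those above the median depth held 2.42 CPM of Gpx3 and those below it 9.89 CPM. The part of such transcripts in the lower Gpx3 level at 1 week was not tested.

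The 4 members past 2-fold in beta cells at 1 week stood closer to WT at 5 weeks. In beta cells at 5 weeks over 1 week Cat was lower (log2 -3.60), as were Gpx4 (-1.70) and Sod1 (-1.10), and Gpx3 was higher (1.76, interval 1.39 to 2.15). Over the alternative settings the Gpx3 ratio ran from 0.73 to 2.52, so it was not past 2-fold under each of them. Past 2-fold lower were 3 of 10 members beside 48.7% of 9715 genes, and past 2-fold higher was 1 of 10 beside 1.86%. Relative to the median of all genes, -0.98, Sod1 differed by -0.12, Gpx4 by -0.72 and Cat by -2.62. With hormones left out Gpx4 (-0.94) and Sod1 (-0.34) were no longer past 2-fold, Cat (-2.84) and Gpx3 (2.52) still were, and Prdx4, at 0.57 with all UMIs, was past it at 1.33. This comparison shares its libraries with the comparisons over WT and is no independent support for them.

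Cells of the alpha class had lower Gpx3 in both mutant libraries. Gpx3 levels were 1055 CPM (1014 to 1097) for WT, 797 CPM (768 to 827) for 1 week and 492 CPM (474 to 509.7) for 5 weeks. At 5 weeks the log2 ratio was -1.10 (interval -1.18 to -1.02), and 1.08% of genes had a smaller ratio. With hormones left out it was -0.97, which is 1.95-fold. After thinning, 38.4% of WT, 32.0% of 1-week and 21.0% of 5-week alpha cells held a Gpx3 UMI (53.9%, 99.4% and 56.0% unthinned). Prdx1 was the next lowest, at 189.8 CPM against 296 CPM in WT (log2 -0.64). The other 7 members tested lay between -0.19 and 0.28, among them Sod1 at 57.3 and 62.3 CPM (interval of the log2 ratio -0.17 to 0.42). Past 2-fold lower was 1 of 9 members, Gpx3, beside 1.42% of 5482 genes, and 0 of 9 were past 2-fold higher beside 3.05%. The WT library is the control of each mutant comparison, and its acinar transcripts in alpha cells, 11007 CPM against 7.41 and 1655 CPM at 1 and 5 weeks, moved with Gpx3 to the extent that WT was highest in both. Their part was not tested.

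At 1 week the dismutase and Gpx4 values of alpha cells resembled those of beta cells in direction. Sod1 stood at 161 CPM (148 to 174) against 57.3 CPM in WT (log2 1.49) and Gpx4 at 569.8 CPM (546 to 595) against 227 CPM (log2 1.33), beside a median of 0.63 for all genes. Cat had 21 UMIs at 1 week and 2 in WT, a log2 ratio of 2.76 with an interval from 0.73 to 5.90. Prdx4 was lower, at 38.4 CPM (32.3 to 45.3) against 82.3 CPM in the library labelled WT (log2 -1.10), beside medians of 0.09 for X-linked and 0.65 for autosomal genes, and Prdx2 stood at 185 against 305 CPM (log2 -0.72). Past 2-fold higher were 2 of 9 members beside 32.4% of 5226 genes, again under the background, and past 2-fold lower was 1 of 9, Prdx4, beside 4.88%. With hormones left out Sod1 stood at 1.15 and Gpx4 at 0.99 on the log2 scale, so that Gpx4 was just under 2-fold, while Prdx4 (-1.44) and Prdx2 (-1.06) were both past 2-fold lower. Since both classes come from the same library, a difference of the whole 1-week library and one of each cell class cannot be told apart.

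Delta cells held the fewest UMIs of the 3 classes. At 5 weeks Prdx1 was lowest relative to WT, at 293 CPM (271 to 317) against 560.0 CPM (492 to 634), a log2 ratio of -0.93 (interval -1.15 to -0.72), and Sod1 stood at 69.9 against 107 CPM (log2 -0.61, interval -1.09 to -0.11). This is the opposite direction to Sod1 in beta cells, and the difference between the classes was not tested. At 1 week Gpx4 stood at 456 against 272 CPM (log2 0.74), Gpx3 at 543 against 404 CPM (log2 0.43, interval 0.16 to 0.70) and Sod1 at 112 against 107 CPM with an interval of its log2 ratio from -0.48 to 0.63. Prdx4 was at 37.2 CPM at 1 week against 122 CPM in the library labelled WT, on 24 and 54 UMIs, too few to be tested (log2 -1.72). No member tested was past 2-fold, 0 of 9 at 5 weeks beside 3.8% of 2897 genes higher and 1.62% lower, and 0 of 8 at 1 week beside 20.9% of 1371 genes higher and 5.25% lower.

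Prdx1, a peroxiredoxin that reduces peroxide with thioredoxin, was lower than WT at 5 weeks in each class, at 251 against 287 CPM in beta, 189.8 against 296 CPM in alpha and 293 against 560.0 CPM in delta cells. Gpx4 had a log2 ratio of 1.30, 1.33 and 0.74 at 1 week and -0.40, -0.19 and -0.34 at 5 weeks in beta, alpha and delta cells. Sod2 had the narrowest range of the 10 genes, 92.3 to 171 CPM over the 9 sums, a 1.85-fold spread. Summed over the 10 genes, alpha cells stood at 2273, 2321 and 1594 CPM in WT, 1 week and 5 weeks and delta cells at 2245, 2477 and 1732 CPM. Gpx3 alone made up 1055 CPM of the WT alpha sum.

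Within the 1-week library, beta cells were split by Ddit3, which encodes the stress factor CHOP. The 328 beta cells with Ddit3 at 0.1% or more of UMIs and the 234 with less had like depths, with medians of 24516 and 25361.5 UMIs. Gpx4 stood at 616 against 255 CPM, Gpx1 at 142 against 60.0 CPM, Sod1 at 206 against 94.5 CPM and Cat at 11.7 against 3.08 CPM in cells with high and low Ddit3, log2 ratios of 1.27, 1.24, 1.13 and 1.93. These cells also held less Ins2, at 278175 against 470872 CPM. The median of all genes was accordingly 0.67, and 0.02 with hormones left out, when the 4 genes stood at 0.62, 0.59, 0.47 and 1.28. Sod2, Prdx1, Prdx2, Prdx4 and Txn1 lay between -0.46 and 0.01 on that scale. Past 2-fold higher were 4 of 9 members tested beside 22.8% of 8184 genes, and 0 of 9 were past 2-fold lower beside 0.66%. Cells of a library are not replicates, so the values describe this library.

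**Figure D4:**
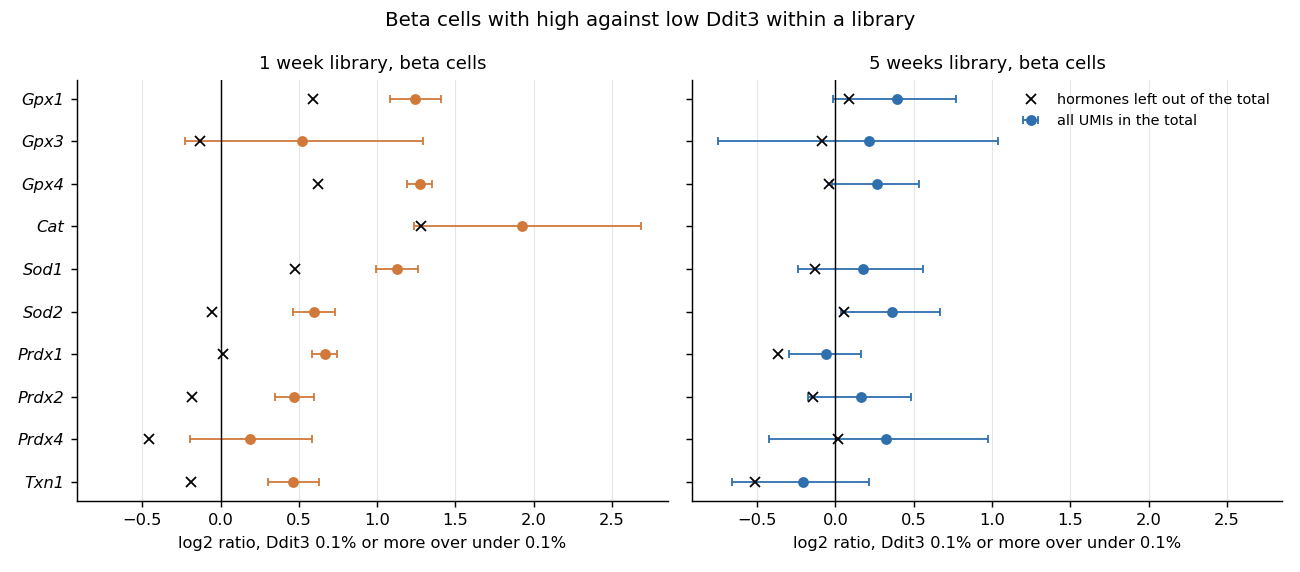
Log2 ratio of CPM in beta cells with Ddit3 at 0.1% or more of UMIs over those with less, at 1 week (328 and 234 cells) and 5 weeks (248 and 5437 cells), with exact 95% counting intervals, and the same ratio with hormones left out of the total as crosses. Gpx1, Gpx4, Cat and Sod1 lie highest at 1 week on both scales, while at 5 weeks 8 of 9 intervals include 0. Cat had 0 UMIs in the 5-week cells with high Ddit3 and is not drawn there.

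At 5 weeks 248 beta cells passed the Ddit3 line and 5437 did not. The log2 ratios of the 9 members other than Cat lay between -0.21 and 0.39, and the interval included 0 for each but Sod2 (0.36, interval 0.04 to 0.67). Split by the share of Ins1 among insulin transcripts, the 22 beta cells at 1 week with a share of 15% or more had a lower CPM of each of the 10 genes than the 496 under 10%, for example Gpx4 at 181 against 505 CPM and Sod1 at 68.6 against 175 CPM. With hormones left out these differences were -0.52 and -0.39 on the log2 scale, and Sod2, Prdx2 and Txn1 turned to 0.03, 0.33 and 0.16. The 22 cells held 1 Gpx3 UMI between them. Depth differed too, with medians of 44050 and 23831.5 UMIs, and its part was not tested.

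The wider glutathione and thioredoxin system was described by 42 other genes. In beta cells at 1 week 21 of the 36 tested were past 2-fold higher and 1 lower, beside 57.6% and 2.49% of all genes. The median was 1.19 beside 1.15 for all genes, so that with all UMIs the list as a whole stood where all genes did. With hormones left out the medians were 0.36 and 0.31. All 5 genes tested of glutathione synthesis and recycling were past 2-fold higher, as were 6 of 7 of the NRF2 system, the regulator of antioxidant genes, while 0 of 6 genes of protein repair and selenoproteins were. These stand beside the same 57.6% of all genes, and no difference between the parts was tested. With hormones left out 16.8% of all genes were past 2-fold higher. Gclc, Gclm, Gss, G6pdx, Txnrd1, Srxn1, Gstp1, Gstm1, Nfe2l2, Keap1, Hmox1, Sqstm1 and Ftl1 still were, while Gsr (0.41) and Nqo1 (0.98) were not. Gstp1, a glutathione transferase, had the highest ratio (6.73 CPM in WT, 92.8 CPM at 1 week), followed by Hmox1, heme oxygenase (7.67 and 81.2 CPM), Srxn1, which repairs over-oxidised peroxiredoxins (9.85 and 92.5 CPM), and Txnrd1, thioredoxin reductase (16.3 and 133 CPM). Ftl1, the ferritin light chain, stood at 1124 and 8885 CPM, Sqstm1, an autophagy receptor, at 40.3 and 304 CPM, Gstm1, another transferase, at 20.2 and 152 CPM, and Gclc, the catalytic subunit of glutathione synthesis, at 5.86 and 43.1 CPM. These 8 had log2 ratios between 1.73 and 2.63 above the median of all genes. Txnip, the inhibitor of thioredoxin, was the gene past 2-fold lower with all UMIs, at 38.2 against 86.2 CPM.

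Several of these genes also stood high at 1 week in the other classes. In alpha cells 14 of 31 genes tested were past 2-fold higher and 2 lower, beside 32.4% and 4.88% of all genes. In delta cells it was 6 of 16 and 1, beside 20.9% and 5.25%. Gstm1 went from 6.79 to 229 CPM in alpha and from 18.1 to 363 CPM in delta cells, Gstp1 from 12.3 to 157 CPM and from 15.9 to 231 CPM, Txnrd1 from 25.4 to 207 CPM and from 27.2 to 206 CPM, and Ftl1 from 702 to 8472 CPM and from 923 to 6507 CPM. Txnip was lower in each class, at 60.6 against 215 CPM in alpha and 69.8 against 347 CPM in delta cells. RefSeq lists processed copies of Prdx1, Prdx2 and Gpx4, and the files a copy of Ftl1, so reads of these genes may be split in ways the counts do not show.

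**Figure D5:**
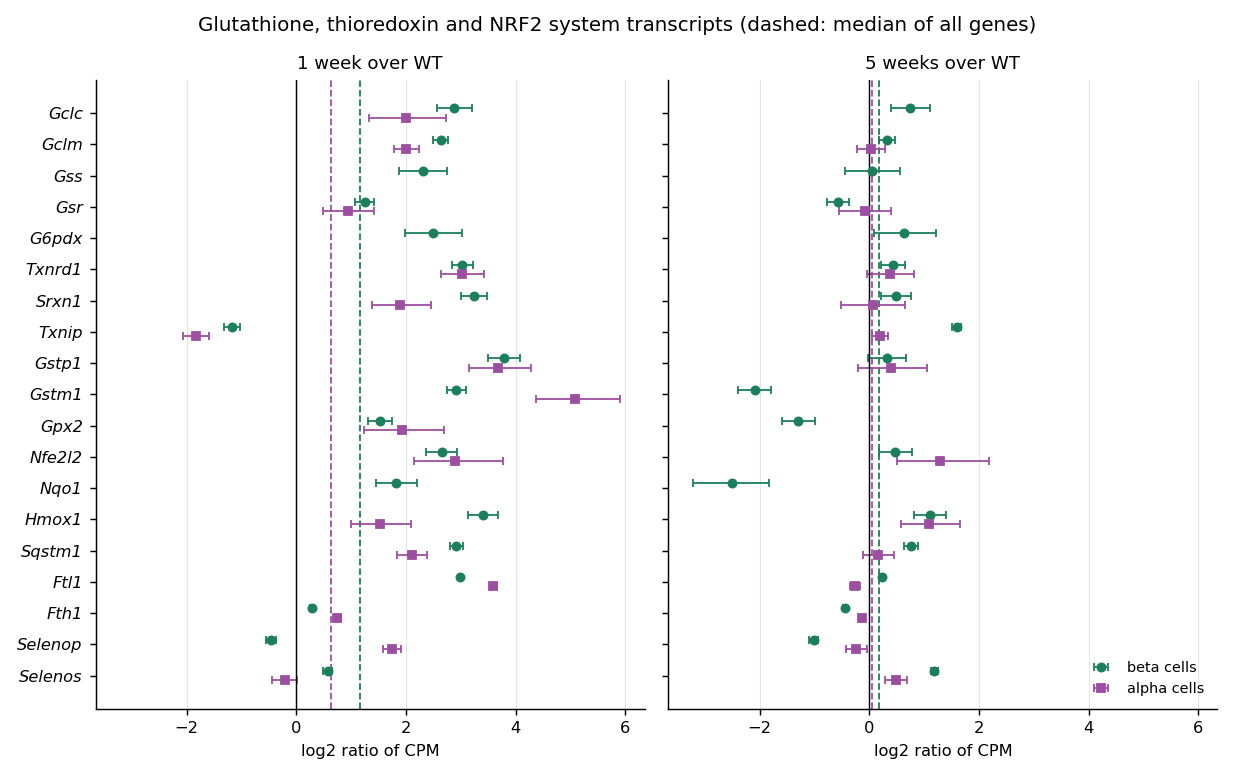
Log2 ratio of CPM over WT for 19 genes of the glutathione, thioredoxin and NRF2 systems in beta (green circles) and alpha cells (purple squares), 1 week left and 5 weeks right, with exact 95% counting intervals. Dashed lines are the medians of all genes, 1.15 and 0.63 at 1 week. Most of the genes shown lie right of them at 1 week and Txnip left in both classes, while at 5 weeks Txnip, Hmox1 and Selenos lie highest and Nqo1, Gstm1 and Gpx2 lowest in beta cells. The genes shown were picked for large ratios or after their values were seen. Of the whole list tested at 1 week, 18 of 36 genes in beta and 19 of 31 in alpha cells lie above the median of all genes.

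At 5 weeks the pattern in beta cells was another. Of 36 genes tested 3 were past 2-fold higher and 4 lower, beside 6.41% and 4.18% of all genes, with a median of 0.21 beside 0.18 for all genes. Txnip stood at 259.6 CPM (254 to 266) against 86.2 CPM (81.7 to 90.8) in WT, a log2 ratio of 1.59, the opposite side of WT from 1 week. Hmox1 stood at 16.4 against 7.67 CPM and Selenos, a selenoprotein of the endoplasmic reticulum, at 278 against 122 CPM. Lower were Nqo1, an NRF2 target quinone reductase (0.894 against 5.05 CPM), Gstm1 (4.75 against 20.2 CPM), Gpx2, another glutathione peroxidase (5.65 against 13.8 CPM), and Selenop, the secreted selenium carrier (88.6 against 179 CPM). In alpha cells at 5 weeks 2 of 27 genes, Nfe2l2, which encodes NRF2, and Hmox1, were past 2-fold higher and 0 lower, beside 3.05% and 1.42% of all genes. In delta cells 0 of 19 were past 2-fold either way, beside 3.8% higher and 1.62% lower. Txnip in alpha cells stood at 247 against 215 CPM (log2 0.20).

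Gpx3 had the widest range of the 10 genes, and the genes with the most similar pattern over the 9 sums of class and library were sought among 7013 genes, by Pearson's r of log2(CPM + 10). They were Gria2 (r = 0.98), Etv1 (0.97), Tnr (0.97), Pde4d (0.97) and Rcn1 (0.97), and the 9 points share 3 libraries and their depths. Etv1, for example, stood at 14.1, 397 and 345 CPM in beta, alpha and delta cells of WT, beside 25.6, 1055 and 404 CPM for Gpx3, and at 14.7, 187 and 199 CPM at 5 weeks, beside 15.4, 492 and 290.2 CPM. As for Gpx3, its level in WT was high in alpha and delta and low in beta cells.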

How the data were processed

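The deposited values are raw UMI counts per gene and cell barcode. The authors dissociated islets with Accutase, sorted live cells, captured them with 10X Chromium and sequenced 3′ libraries. Per the labels, bcl2fastq 2.17.1.14, Cell Ranger 3.1 (mm10) and Seurat 3.1.4 were used. In WT only, hormone-mixed cells and DoubletFinder doublets were removed by the authors and the library was scaled to 12000 cells. No doublet caller was run here.

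UMIs were summed by library and class and given as CPM with exact 95% intervals (Python 3.11.15, numpy 2.4.6, scipy 1.17.1, pandas 2.3.3, figures with matplotlib 3.10.9). The code was run on simulated Poisson counts, which hold no variation between cells or libraries and so check the counting intervals only. A gene was tested with at least 100 UMIs in both sides together, a side under 3 UMIs was set to 3 in the background of all genes, and past the fold means 2-fold. Cells meeting more than 1 rule were counted in each. The members, the pathway and marker lists and the splits were chosen with earlier results of these data known. Named genes are the 10 members, up to 8 genes of the pathway list per direction past 2-fold in beta cells, and the 5 genes most like the member with the widest range. Ddit3, the hormones, Taf4, sex-linked genes and markers are named as checks. Nfe2l2, Keap1 and the further genes of the plotted pathway list were chosen after their values were seen. Sequences are from RefSeq (GRCm38.p6) and GENCODE M1.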

Additional observations from a re-analysis of the deposited data

How the results depend on the processing

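Of 11 alternative settings, the 1.5-fold line moved only the cut-off and gave no ratios of its own. Over the others, where they could be run for the 9 comparisons, 646 of 688 gene ratios kept their sign. So did 187 of 187 of those past 2-fold, though some of these fell under 2-fold. Hormones left out of the total gave 0 members past 2-fold in beta and in alpha cells at 5 weeks over WT (1 each with all UMIs) and 2 in delta over beta cells of WT (4). Leaving hormones out also changed which members passed: Gpx4 dropped out in beta (0.46) and alpha cells (0.99) at 1 week over WT, Gpx4 and Sod1 in beta cells at 5 weeks over 1 week, while Prdx4 came in there, Prdx2 lower in alpha cells at 1 week (-1.06) and Gpx1 lower in alpha over beta (-1.20). Shares higher and lower were 16.8% and 7.23% (beta, 1 week over WT) and 19.9% and 8.16% (alpha, 1 week over WT). They were 5.22% and 8.86% (beta, 5 weeks over 1 week) and 2.78% and 15.7% (alpha over beta). In beta cells at 5 weeks over WT, cells of 2000 or more UMIs gave 0, the filter of 200 to 1500 genes and under 15% mitochondrial UMIs gave 0, and stricter purity gave 2. Shares of all genes higher and lower were 7.53% and 4.37%, 7.38% and 4.25%, and 5.66% and 5.01%, in that order. In delta cells at 5 weeks over WT (0), the mean of cell CPM gave 1, thinning to 500 UMIs 1 and stricter purity 1. Thinning gave 2 in beta cells at 5 weeks over 1 week (4) and 3 in delta cells at 1 week over WT (0). Beside these stood 2.72% of genes higher and 50.1% lower, and 24.2% higher and 10.6% lower. A 1.5-fold line gave 2 in beta, 2 in alpha and 2 in delta cells at 5 weeks, 1 in delta cells at 1 week, 4 in alpha over beta (2) and 7 in delta over beta. Of all genes, 21.5%, 12.7%, 13.3%, 37.5%, 46.7% and 70.1% were past that line higher in the same order. Past it lower were 10.1%, 6.15%, 7.36%, 8.92%, 7.52% and 4.68%. Beyond their construction, the cause of these moves was not tested. Settings leaving under 30 cells in a side were not run: the 2000-UMI minimum for alpha and delta cells, the filter on genes for 1 week, and WT thresholds for 1-week delta cells. At 1 week the filter of the study's methods kept 17 of 562 beta, 1 of 172 alpha and 1 of 38 delta cells. The 1-week values are thus from cells that this filter would nearly all remove. No paired analysis was possible because the labels carry no replicate numbers and each condition has 1 library. Depth limits Cat most, with 2 to 117 UMIs per class.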
